A study of Homo sapiens with 12 samples.

Results

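The comparison of MOLM13 leukaemia cells carrying the guide RNA sgRNA1 against YBX1 with cells carrying the control vector rests on 8 of the 12 RNA-seq libraries of the study, 4 of each kind, which were matched by the replicate numbers 1 to 4 in their labels. MOLM13 is an established human line of acute monocytic leukaemia that carries an internal tandem duplication of the receptor FLT3 and a KMT2A fusion. Both groups stably expressed Cas9 after selection with blasticidin at 5 µg/ml, received the guide vector by lentivirus and were kept in puromycin at 1 µg/ml. Cells high in the red fluorescent protein of that vector were sorted, and RNA was taken 7 days after transduction. The control is labelled as a non-targeting sgRNA vector in one place and as an empty vector in another. The labels describe sorted cells with no cloning step, so each library stands for a pool of edited cells, and YBX1 protein was not measured in these libraries. The other 4 libraries, from cells with sgRNA2, served to estimate the spread and to compare the guides. Of the 19755 protein-coding genes in the table, 10982 had a mean level of at least 4 and were tested.

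YBX1 is a cold-shock domain protein that binds DNA and RNA, coats cytoplasmic mRNA in messenger ribonucleoprotein particles and is known to influence splicing, stability and translation of its targets. In acute myeloid leukaemia it has been described as a factor that leukaemic cells depend on. Many mRNAs for ribosomal proteins and translation factors share a terminal oligopyrimidine (TOP) start, a C followed by a run of pyrimidines at the 5′ end, which couples their translation to growth signals through mTOR and LARP1.

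Levels are given as regularised log2 values (rlog), on which a difference of 1 is a doubling and changes of weakly expressed genes are shrunken. The depth of the libraries is unknown. Differences are sgRNA1 minus control with their standard error (SE), from a limma fit with the replicate number as a block, and a gene was called at a Benjamini-Hochberg adjusted p under 0.05. RNA from a mixture of cells cannot show whether a lower value means fewer cells of a type or less RNA in each cell. Library medians lay between 8.68 and 8.70 and did not separate the groups. All 10 myeloid marker genes fixed as a check reached the tested range, FLT3 among them at 12.29 ± 0.06 in control and 12.34 ± 0.10 in sgRNA1 cells (SD, n = 4 each). None of the 5 T cell, 5 erythroid or 5 fibroblast markers reached it. Of the 5 epithelial markers 2 did (KRT8 and KRT18), and neither passed the test. Among the B cell markers PAX5 was in the tested range and did not pass.

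The YBX1 mRNA was at 12.91, 12.96, 12.76 and 12.81 in control libraries 1 to 4 and at 11.20, 11.38, 11.08 and 11.09 in the sgRNA1 libraries of the same numbers. Every sgRNA1 library lay more than 1 log2 unit below every control library. The difference was -1.67 (SE 0.039), lower in 4 of 4 pairs, which left 31.3% of the control level, with a range of 30.3% to 33.5% over the pairs. These values are a description with no test, because sgRNA1 was chosen as the guide with less YBX1 mRNA left. The gene lies on chromosome 1 at 42682427 to 42702349 (GRCh38, plus strand). Of the 30 tested genes within 2 Mb of it, none was called by limma, against 3.21% of all genes tested, and their median difference was -0.0055. By limma 6 of the 30 had an unadjusted p under 0.05, as did 1841 of the 10982 genes tested. Among the other cold-shock domain genes YBX3, a paralogue that also packages mRNA, fell by 0.18 (SE 0.039, adjusted p = 0.0132, lower in 4 of 4 pairs), from 11.76 ± 0.07 to 11.59 ± 0.10. CARHSP1 did not pass (adjusted p = 0.978), and 4 of the 8 listed members were below the tested range.

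To determine how far the rest of the transcriptome moved, all tested genes were compared. A total of 352 genes (3.21%) were called, 151 higher (1.37%) and 201 lower (1.83%). In 341 of them all 4 pairs moved the same way. The control and sgRNA1 libraries did not overlap for 345 of the genes tested (3.14%), 145 of them among the called. The changes were small: the median difference was 0.20 among the higher and -0.20 among the lower genes, against -0.0057 and an SD of 0.079 over all genes tested. Only YBX1, EIF4B and EIF3L (0.0273% of genes) changed by more than 1.5-fold. These calls rest on the pairing. Without the replicate block 5 genes were called (0.0455%), all lower: YBX1, EIF4B, EIF3L, FBXO33 and EIF3D, with 604 genes at an unadjusted p under 0.05 against 1841 with it. Over the 8 libraries the replicate number took up 72.1% of the variance and the guide 12.7%. The count of called genes also moved as single libraries or replicate numbers were left out. It was 130 without control library 1, 113, 224, 122 and 170 without sgRNA1 libraries 1, 2, 3 and 4, 706 without sgRNA2 library 3, and 75 and 133 without replicate numbers 1 and 4. A core of 54 genes (14 higher, 40 lower) was called in each of those 16 fits. Of the 76 called genes chosen to be named, by the size of their change or within a list, 33 belonged to it: YBX1, EIF4B, EIF3L, EIF3D, EIF3F, EEF1B2, RPL4, RPL5, RPL6, PABPC4, G3BP1, QARS, ODC1, AHCY, IMPDH2, PHB2, FBXO33, TNFRSF19, MPO, NT5DC2 and NXT2 among the lower, and CDHR1, ITGAX, ADA2, KSR1, CA2, SCUBE1, HK3, TBC1D8, CCL5, CELSR1, CDH3 and LILRA1 among the higher. The call of each of the other 43 was lost in at least 1 of these fits.

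**Figure D1:**
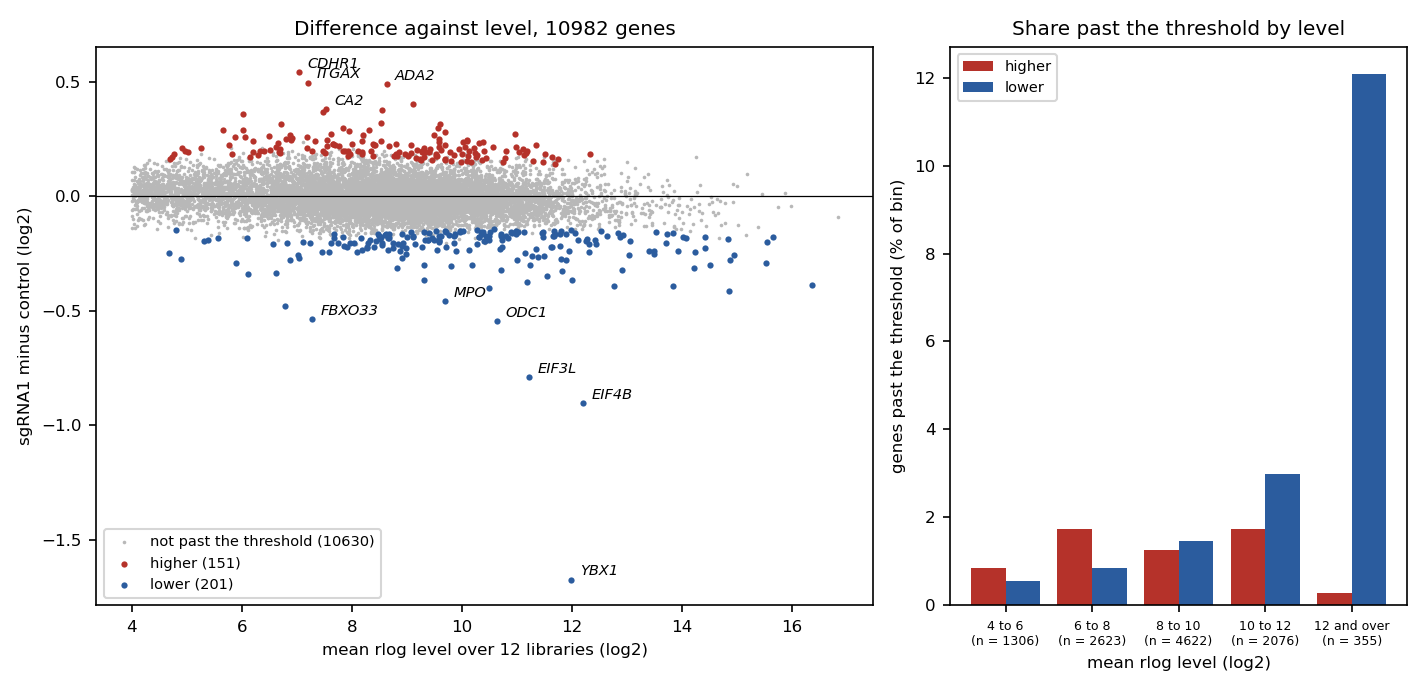
Left, difference between sgRNA1 and control cells (log2) against the mean rlog level over 12 libraries, 1 point per gene, with the 151 genes called higher in red and the 201 called lower in blue. Right, share of genes called in each level bin; of the 355 genes at a level of 12 or more, 12.1% were lower and 0.282% higher.

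The direction of the calls varied with the expression level. Among the 355 genes with a mean level of 12 or more, 43 (12.1%) were lower and 1 was higher, while of the 1306 genes between 4 and 6, 7 (0.536%) were lower and 11 (0.842%) were higher. Quantile scaling, which forces all libraries to 1 distribution, left 125 lower and 137 higher genes, so the balance of lower to higher calls turned with it. Genes called lower were also shorter, with a median gene length of 22537 bp against 32808 bp for all genes tested and 47935 bp for those called higher.

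Translation initiation factors held the largest decreases after YBX1. EIF4B encodes a cofactor that stimulates the helicase eIF4A while the small ribosomal subunit scans the 5′ leader. Its mRNA was at 12.69, 12.66, 12.76 and 12.78 in the control libraries and at 11.83, 11.999, 11.69 and 11.75 with sgRNA1. The groups did not overlap, and the difference of -0.91 (SE 0.052, adjusted p = 6.24e-11) left 53.4% of the control level. EIF3L, a subunit of the eIF3 complex that joins the mRNA to the small subunit, went from 11.56, 11.65, 11.75 and 11.76 to 10.74, 11.05, 10.86 and 10.90. Here too every sgRNA1 library was below every control library, with a difference of -0.79 (SE 0.044, adjusted p = 6.24e-11). For EIF3D, the eIF3 subunit that can itself contact the cap, the levels were 12.15, 12.21, 12.23 and 12.30 in control and 11.81, 11.97, 11.80 and 11.86 in sgRNA1 cells. They did not overlap either (-0.37, SE 0.042, adjusted p = 9.77e-06). EIF3F, a further eIF3 subunit, fell by 0.30 (SE 0.042, adjusted p = 0.000171). The fifth call was EIF4EBP2, an inhibitor of the cap-binding protein (-0.17, adjusted p = 0.0258). These 5 were the called members of the 42 initiation factors, all lower, against 1.83% lower over all genes. The median of the list was -0.018, and EIF1 (-0.11, adjusted p = 0.197) and EIF1AX (-0.04, adjusted p = 0.779) were among the 37 that did not pass.

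**Figure D2:**
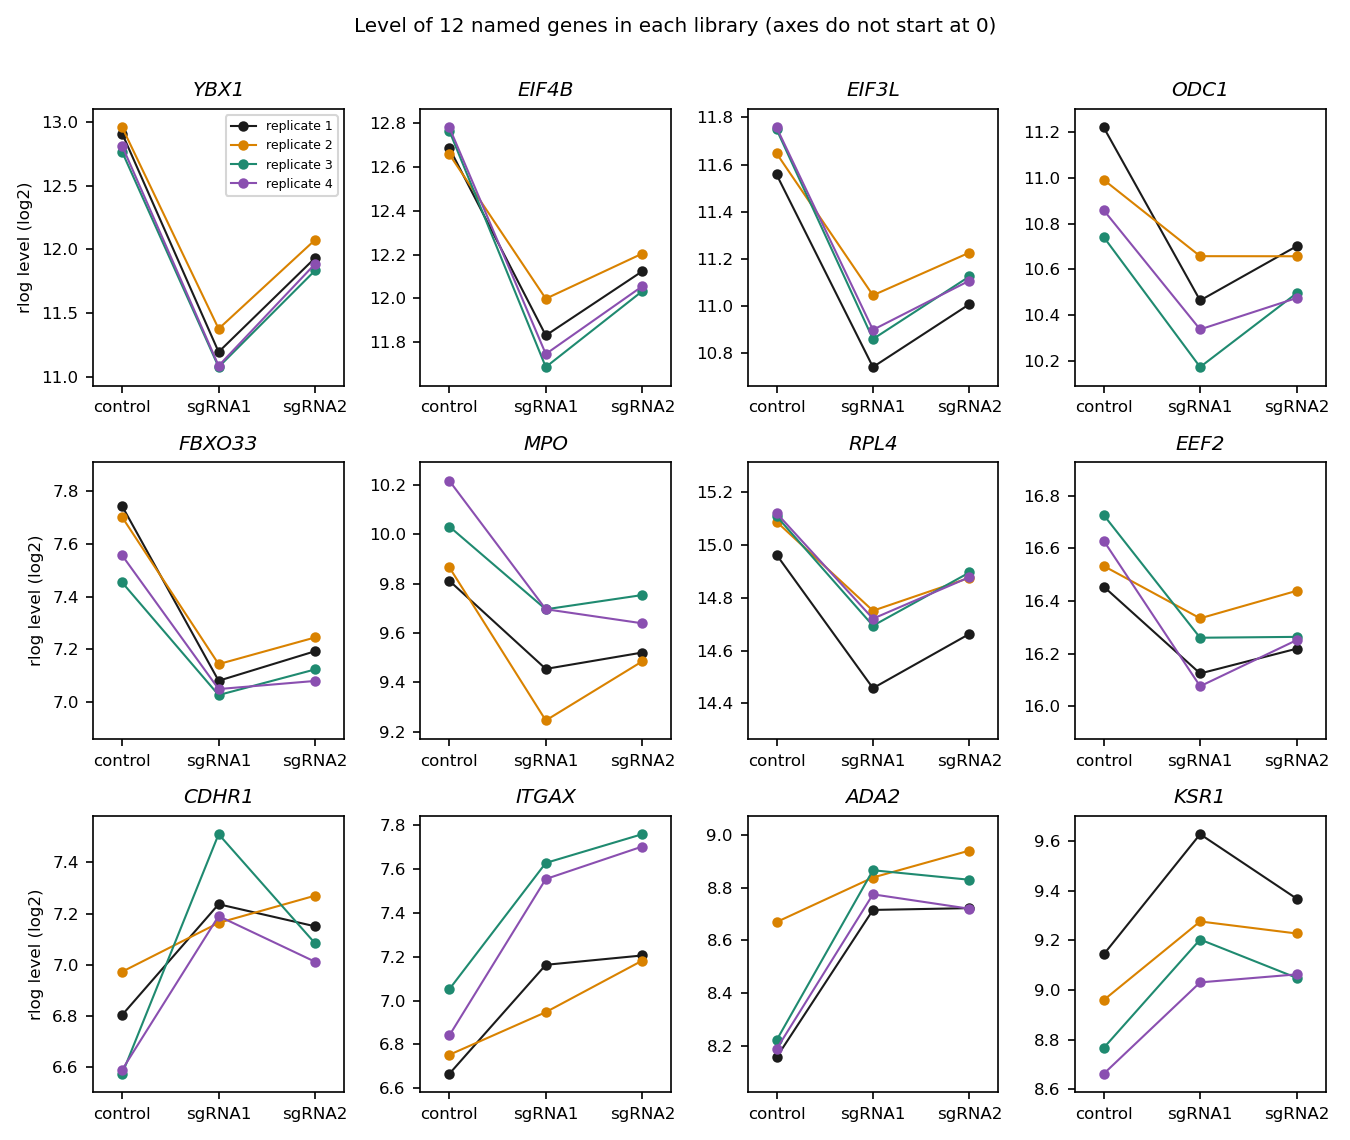
rlog level (log2) of 12 named genes in each of the 12 libraries, by group, with lines joining libraries of the same replicate number. All 4 sgRNA1 libraries lie apart from the 4 controls for 10 of the genes, against 3.14% of all genes tested. The 12 genes were taken from the largest changes, so this count is no independent result. ITGAX and KSR1 rose in every pair but overlapped between groups. The vertical axes do not start at 0.

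Of the 10 elongation and termination factors, 2 were called, both lower, against 1.83% lower over all genes tested. Both had a mean level of 12 or more, where 12.1% of all genes were lower. EEF1B2, part of the exchange factor that recharges eEF1A with GTP, was at 12.89, 13.04, 12.93 and 13.02 in control and 12.46, 12.70, 12.53 and 12.62 in sgRNA1 cells, without overlap (-0.39, SE 0.041, adjusted p = 4.64e-06). EEF2, which moves the ribosome along the mRNA, was at 16.45, 16.53, 16.73 and 16.63 against 16.13, 16.33, 16.26 and 16.08. These groups did not overlap, and the difference was -0.39 (SE 0.059, adjusted p = 0.000474). EEF2 ranked 2 among the tested genes in each of the 12 libraries, so quantile scaling, which gives equal ranks equal values, set its difference to 0. EEF1A1, which delivers aminoacyl-tRNA, did not pass (-0.09, adjusted p = 0.392).

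Of the 50 large-subunit ribosomal protein genes 14 were lower and none higher, against 1.83% lower over all genes tested. These genes are highly expressed, with median control levels of 13.67 for the large and 13.51 for the small subunit, and at levels of 12 or more 12.1% of all genes were lower. RPL4 was at 14.96, 15.09, 15.11 and 15.12 in control libraries and at 14.46, 14.75, 14.69 and 14.72 with sgRNA1, which left 75% of the control level (-0.42, SE 0.044, adjusted p = 5.83e-06). RPL6 moved from 13.98, 14.06, 14.02 and 14.13 to 13.51, 13.73, 13.64 and 13.74 (-0.39, SE 0.043, adjusted p = 6.21e-06). Neither gene overlapped between the groups. RPL5 (-0.31, adjusted p = 0.000224) and RPL3 (-0.29, adjusted p = 0.00126) followed, while RPL7 (-0.06, adjusted p = 0.531) and RPL9 (-0.06, adjusted p = 0.547) did not pass. In the small subunit 5 of 33 genes were lower, among them RPS16 (-0.30, adjusted p = 0.00132), RPS3 (-0.28, adjusted p = 0.00676) and RPS7 (-0.21, adjusted p = 0.00952). Under quantile scaling the calls of RPL3 (adjusted p = 0.114) and RPS3 (adjusted p = 0.311) were lost. The list medians were -0.067 and -0.083, and under quantile scaling -0.010 and -0.034 with 6 and 4 members lower. With libraries or numbers left out the counts ran from 4 to 19 and from 0 to 11, lowest without replicate number 4 and highest without sgRNA2 library 3. Ribosomal protein genes share sequence with many processed pseudogenes, and how reads of 37 bp were divided among copies is not given in the sources used here, so single values are uncertain.

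A list of 27 other mRNAs with a TOP start, which includes several of the factors above, had 25 tested members, of which 11 were lower and none higher, with a median of -0.11. Quantile scaling left 7 of them lower and a median of -0.041, and 7 were also lower without replicate number 4. Over all genes tested 1.83% were lower. The list is highly expressed, with a median control level of 12.97, and at levels of 12 or more 12.1% of all genes were lower. Beyond the factors already named, PABPC4, a cytoplasmic poly(A)-binding protein, fell by 0.35 (SE 0.038, adjusted p = 6.21e-06), from 11.76 ± 0.07 to 11.41 ± 0.12. NOP53, needed for large-subunit assembly, fell by 0.32 (adjusted p = 0.000102), and the ribosomal scaffold RACK1 by 0.23 (adjusted p = 0.00506). The call of HNRNPA1 (-0.18, adjusted p = 0.0218) and that of PABPC1 (-0.18, adjusted p = 0.0489) were lost under quantile scaling. NPM1, a nucleolar chaperone, did not pass (-0.07, adjusted p = 0.423). The list was compiled with earlier results of these data known, as were all lists used here, so that its direction is no independent evidence.

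To show what such a start looks like, the annotated starts of the genes with the largest decreases were searched for a C followed by 4 bases that are each C or T, beginning within 5 bases of the start on the transcribed strand. RefSeq windows (GRCh38.p14) were at hand for 12 of the 15 genes, and 6 of these had such a run in at least 1 window, against 29.9% of all tested genes with a window, counted the same way, and 21.1% of all windows. Genes with several windows had more chances of a match. Each is printed with 15 bases before and 15 from the start onwards, and the pyrimidine run is in capitals.
EIF4B, chr12:53006441-53006470, plus strand: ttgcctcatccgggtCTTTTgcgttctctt
EEF1B2, chr2:206159880-206159909, plus strand: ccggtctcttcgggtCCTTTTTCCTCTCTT
EEF2, chr19:3985449-3985478, minus strand: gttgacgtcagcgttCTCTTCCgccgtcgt
EIF3D, chr22:36529152-36529181, minus strand: gcgcgcgcatgtttCCTCTTTTCCTggttt
RPL4, chr15:66504841-66504870, minus strand: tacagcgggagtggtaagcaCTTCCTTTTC
NXT2, chrX:109535809-109535838, plus strand: ggctggctgagaagaagCTTCCgttagtcc
The run of EEF1B2 had 16 pyrimidines, that of RPL4 12 and that of EIF3D 11, those of RPL4 and EEF1B2 continuing beyond the printed bases, whereas EIF4B and NXT2 had 5. A match of letters is a description of the annotated start and does not show that the transcript begins there in these cells. With GENCODE 29 transcript starts, which nearly all genes have, such a run was present in 13.4% of the genes called lower, 10.8% of all genes tested and 4.64% of those called higher. Outside the translation lists the share among lower genes was 11.8%. A search of RefSeq windows for the letters CCAAT was void, because 79.6% of the lower and 75.5% of the higher genes had a window.

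Among enzymes and other proteins, ODC1, which makes the polyamine putrescine and is a classical MYC target, showed the largest decrease. Control libraries held 11.22, 10.99, 10.74 and 10.86 and sgRNA1 libraries 10.46, 10.66, 10.17 and 10.34. The highest sgRNA1 library was below the lowest control, and the difference of -0.55 (SE 0.052, adjusted p = 1.16e-06) left 68.5% of the level. AHCY, which clears S-adenosylhomocysteine in the methionine cycle, went from 11.34, 11.45, 11.43 and 11.43 to 10.95, 11.21, 10.995 and 11.01 without overlap (-0.37, SE 0.041, adjusted p = 6.21e-06). AMD1, the enzyme that supplies the aminopropyl donor for spermidine, fell by 0.16 (adjusted p = 0.0405), and this call was lost under quantile scaling. These 3 were the called genes among 18 of the methionine cycle and polyamine synthesis, against 1.83% lower over all genes tested. MAT2A, which makes S-adenosylmethionine, did not pass (-0.02, adjusted p = 0.84).

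FBXO33, an F-box protein described as a substrate receptor of a ubiquitin ligase for YBX1, was at 7.74, 7.70, 7.45 and 7.56 in control and 7.08, 7.14, 7.03 and 7.05 in sgRNA1 cells. The groups did not overlap (-0.54, SE 0.049, adjusted p = 4.83e-07), and this was 1 of the 5 calls that held without the block (adjusted p = 0.00376). The other tested partners of YBX1 in the ubiquitin system, such as RBBP6 (-0.07, adjusted p = 0.409) and SKP1 (adjusted p = 0.982), did not pass, 6 of 7 in all. TNFRSF19, a receptor of the tumour necrosis factor family, was at 7.09, 6.92, 7.12 and 7.19 against 6.74, 6.52, 6.53 and 6.61, likewise without overlap (-0.48, SE 0.060, adjusted p = 4.17e-05). NT5DC2 (-0.40, SE 0.046, adjusted p = 9.77e-06) fell in every pair but its groups overlapped, and NXT2, related to mRNA export factors, fell by 0.37 (SE 0.054, adjusted p = 0.000305) without overlap. Among RNA-binding proteins G3BP1, the core of stress granules, fell by 0.26 (SE 0.043, adjusted p = 0.000891), 1 of 3 called genes among 28 mRNP proteins together with PABPC4 and PABPC1. Over all genes tested 1.83% were lower.

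MYC itself, the transcription factor behind much of the growth program, was at 13.03 ± 0.10 in control and 13.07 ± 0.04 in sgRNA1 cells (0.04, adjusted p = 0.721). Of 30 MYC target genes, with a median control level of 11.06, 4 were lower and none higher. Over all genes tested 1.83% were lower, and at levels of 10 to 12 the share was 2.99%. Without sgRNA2 library 3, 8 MYC targets were lower and 1 was higher. Leaving out any other library or replicate number gave 3 or 4 lower. Besides ODC1 these were IMPDH2, which limits guanine nucleotide synthesis (-0.24, SE 0.038, adjusted p = 0.00068), the mitochondrial prohibitin PHB2 (-0.27, SE 0.047, adjusted p = 0.00158) and LDHA (-0.21, SE 0.053, adjusted p = 0.0329), whose call was lost under quantile scaling. NCL (-0.07, adjusted p = 0.441) and CAD (-0.04, adjusted p = 0.705) did not pass. MXD4, a MAX partner that opposes MYC, was the 1 called gene of 11 in that network (0.17, adjusted p = 0.0473), where 1.37% of all genes tested were higher. It was not called under quantile scaling (adjusted p = 0.051). Ribosome biogenesis showed 1 lower gene of 32, the rRNA methyltransferase FBL (-0.21, adjusted p = 0.0169), and the cytosolic aminoacyl-tRNA synthetases 1 of 23, QARS (-0.33, SE 0.046, adjusted p = 0.000155), both shares not far from the 1.83% of all genes.

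**Figure D3:**
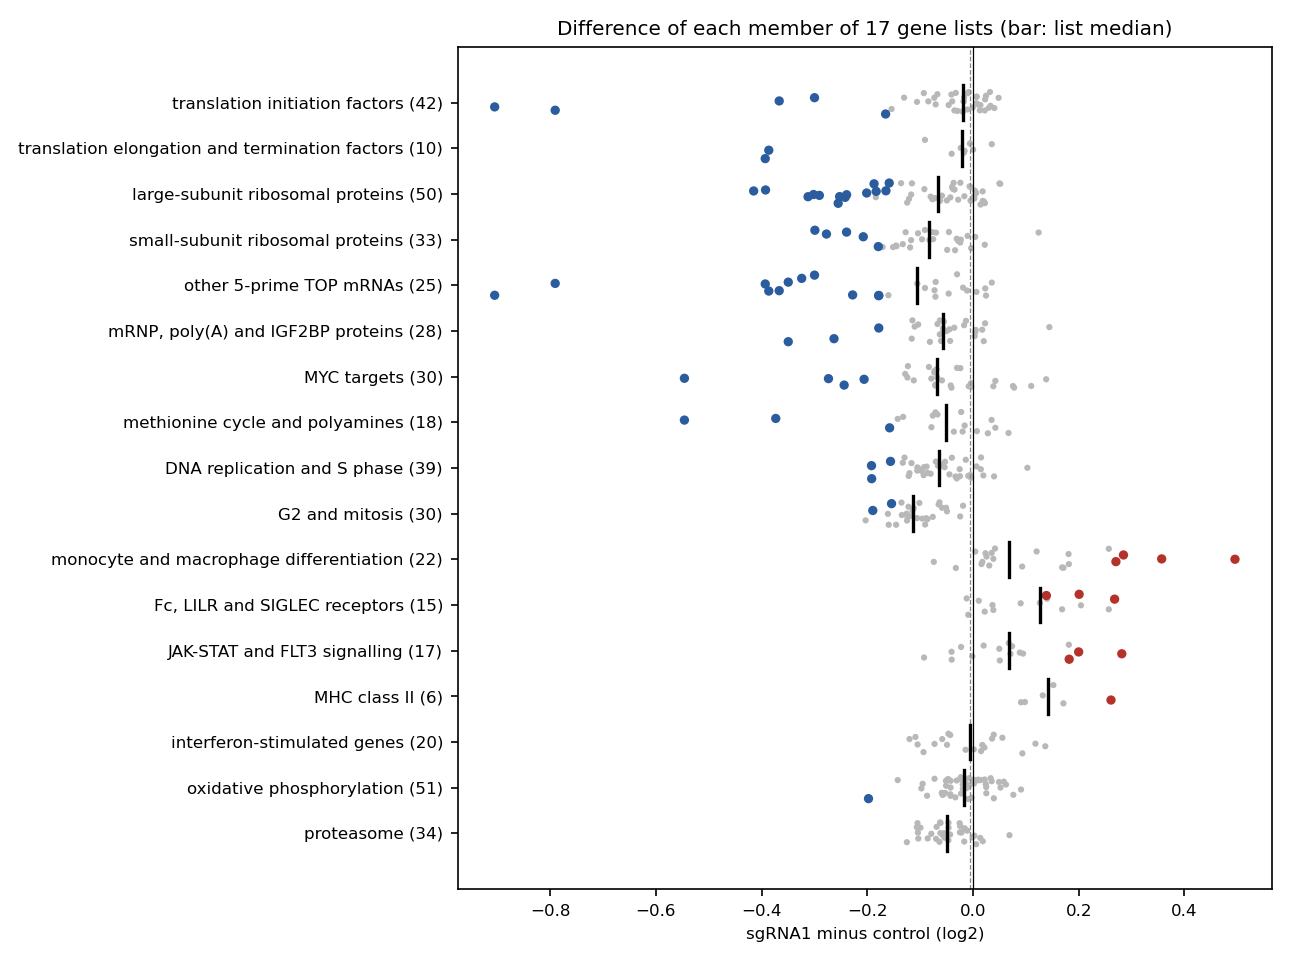
Difference between sgRNA1 and control cells (log2) for each tested member of 17 gene lists, with members called lower in blue, called higher in red and others in grey; bars mark list medians, the dashed line the median of all genes tested, and numbers in brackets the tested members. Translation lists have a tail of blue points to -0.91. All 30 G2 and mitosis genes lie below 0, where 5835 of the 10982 genes tested do.

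All 30 G2 and mitosis genes had a difference below 0, with a median of -0.11, where 5835 of the 10982 genes tested were below 0. Of the 30, 2 were called and 21 had an unadjusted p under 0.05 by limma. Over all genes tested 1.83% were called lower, and 1841 had an unadjusted p under 0.05. AURKA, a kinase of the spindle poles, fell by 0.19 (SE 0.040, adjusted p = 0.0108) and CCNB2 by 0.15 (SE 0.043, adjusted p = 0.0477). CCNB1 (-0.12, adjusted p = 0.117) and CCNA2 (-0.11, adjusted p = 0.161) did not pass. With replicate numbers 1 and 2 alone 11 of the 30 were lower, and with 3 and 4 alone none was called. Over all genes the same 2 fits called 381 and 75 lower, so the contrast is not particular to this list. Of 39 DNA replication and S phase genes 33 were below 0 and 3 were called lower, the clamp loader subunit RFC5 (-0.19, adjusted p = 0.0133), the licensing factor CDT1 (-0.19, adjusted p = 0.0258) and CDC6 (-0.16, adjusted p = 0.0488). MCM2 did not pass (0.01, adjusted p = 0.914), and 13 of the 39 had an unadjusted p under 0.05 by limma. The calls of CCNB2 (adjusted p = 0.0825) and CDC6 (adjusted p = 0.0834) were lost under quantile scaling. Without sgRNA1 library 1 or 3, or without replicate number 1, no gene of either list was called, and without sgRNA2 library 3 there were 9 lower G2 and mitosis genes and 6 lower replication genes.

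The increases were smaller than the leading decreases. CDHR1, a cadherin best known from photoreceptors, was at 6.80, 6.97, 6.57 and 6.59 in control and 7.24, 7.16, 7.51 and 7.19 in sgRNA1 cells. It did not overlap and showed the largest increase (0.54, SE 0.074, adjusted p = 0.00012). ITGAX, the integrin CD11c of monocytes and dendritic cells, was at 6.67, 6.75, 7.05 and 6.84 against 7.16, 6.95, 7.63 and 7.55. It rose in every pair (0.50, SE 0.063, adjusted p = 4.37e-05), though sgRNA1 library 2 was below control library 3. ADA2, an adenosine deaminase secreted by monocytes, was at 8.16, 8.67, 8.22 and 8.19 against 8.72, 8.84, 8.87 and 8.78 (0.49, SE 0.058, adjusted p = 1.71e-05). Its groups did not overlap, and control library 2 stood above the other 3 controls.

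KSR1, a scaffold of the RAF-MEK-ERK cascade, was at 9.14, 8.96, 8.77 and 8.66 in control and 9.63, 9.28, 9.20 and 9.03 in sgRNA1 cells. It rose by a similar step in every pair (0.40, SE 0.047, adjusted p = 1.27e-05), and the groups overlapped because the replicate numbers differ in level. It was the 1 called gene of 25 in the MAPK list, against 1.37% higher over all genes tested, so the count describes KSR1 and not the list. In that list the phosphatase genes DUSP1 (adjusted p = 0.784) and DUSP2 (adjusted p = 0.798) did not pass. CA2, a carbonic anhydrase (0.38, SE 0.057, adjusted p = 0.000392), and HK3, a hexokinase of myeloid cells (0.36, SE 0.055, adjusted p = 0.000447), rose without overlap. SCUBE1, a secreted and membrane-bound glycoprotein (0.38, SE 0.047, adjusted p = 3.23e-05), and the chemokine CCL5 (0.30, SE 0.049, adjusted p = 0.000891) rose in 4 of 4 pairs with overlap. The remaining 7 of the 15 largest increases were RAB37, TBC1D8, ADAMTS14, JCAD, CELSR1, CDH3 and XYLT1, with differences of 0.29 to 0.32 and adjusted p of 0.000126 to 0.00586. ADAMTS14, which processes procollagen, and XYLT1, which starts proteoglycan chains, act on the extracellular matrix, and CELSR1 and CDH3 are cadherins. Pair 2 gave the smallest step for 11 of the 15 genes. This was not limited to increases: the median step was nearest to 0 in pair 2 over all genes called higher (0.15) and over all called lower (-0.15).

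**Figure D4:**
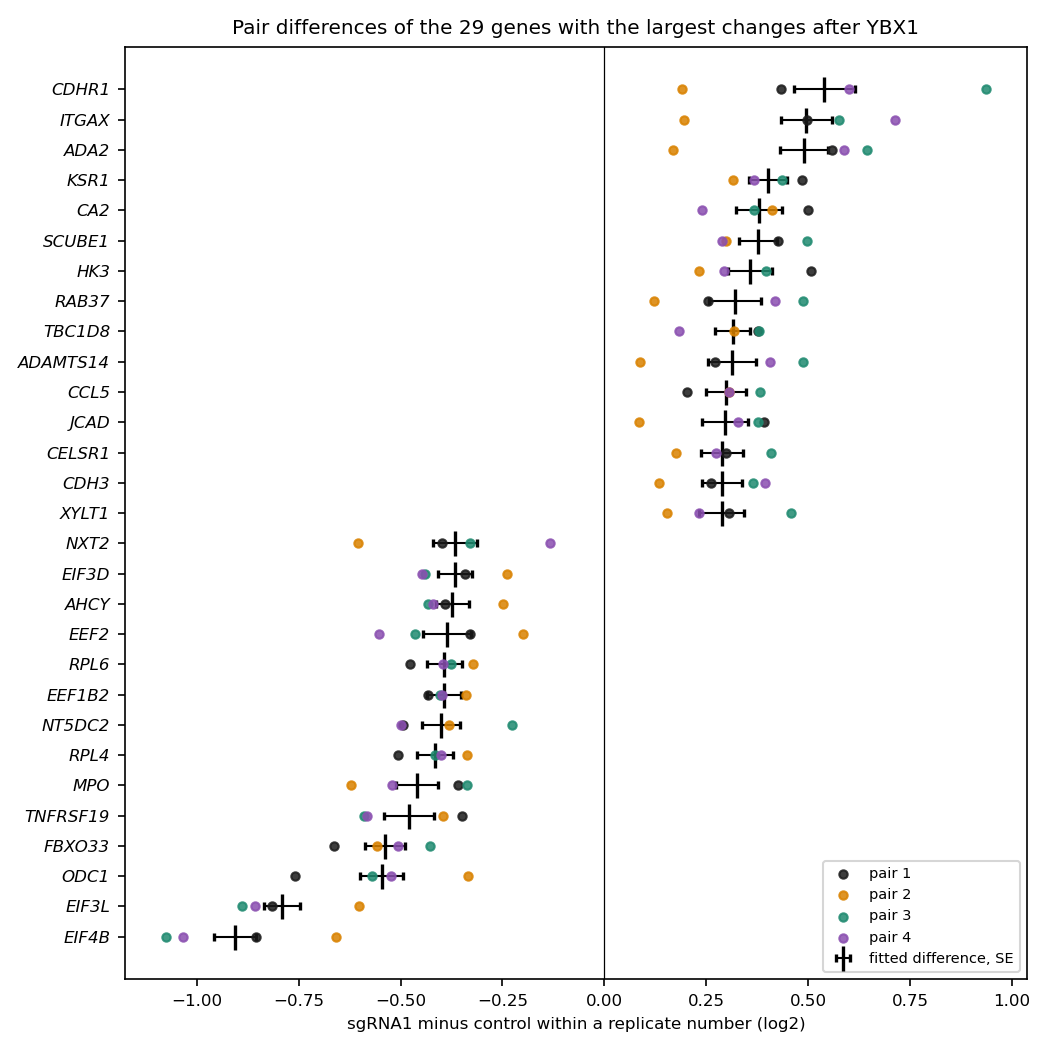
Difference between sgRNA1 and control within each replicate number (log2, coloured points) for the 15 largest increases and the 14 largest decreases after YBX1, with the fitted difference and its SE in black. The genes were chosen among calls with the same sign in all 4 pairs, which fixes the side of 0. Pair 2 (orange) lies nearest to 0 for 11 of the 15 increases. Its median step was also nearest to 0 over all genes called lower.

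Of 22 monocyte and macrophage differentiation genes 4 were higher and none lower (1.37% of all genes were higher): ITGAX, HK3, the galectin LGALS3 (0.27, SE 0.057, adjusted p = 0.0105) and PTAFR, the receptor for platelet-activating factor (0.28, SE 0.061, adjusted p = 0.0113), which rose in 3 of 4 pairs. ITGAM, the integrin CD11b, did not pass (0.17, adjusted p = 0.0937), nor did FCGR1A (0.04, adjusted p = 0.739) or CD86 (0.04, adjusted p = 0.825). With libraries or numbers left out 2 to 8 of these genes were called, fewest without control library 1, sgRNA1 library 1 or 4, or replicate number 1 or 4, and most without control library 2 or replicate number 2. With replicate numbers 1 and 2 alone 3 were higher and 2 lower (median 0.016), and with 3 and 4 alone 7 were higher and none lower (median 0.18). Over all genes these fits called 379 and 106 higher, and 381 and 75 lower. The median of the list was 0.067, and its pair medians differed, with -0.059 in pair 2 and 0.19 in pair 4. Of 15 Fc, LILR and SIGLEC receptors 3 were higher, the activating LILRA1 (0.27, SE 0.049, adjusted p = 0.0033), the inhibitory LILRB1 (0.20, SE 0.052, adjusted p = 0.0333) and the collagen receptor LAIR1 (0.14, SE 0.038, adjusted p = 0.0456). The call of LILRB1 was lost under quantile scaling (adjusted p = 0.0659), and CD33 did not pass in the main fit (0.01, adjusted p = 0.934). The count of called receptors fell to 1 when any single one of 6 libraries or 3 replicate numbers was left out. It was 5 without control library 2, sgRNA2 library 3 or replicate number 2. CIITA, the master activator of MHC class II genes, rose by 0.26 (SE 0.049, adjusted p = 0.00392) and was the 1 called gene of 6 tested in that group. HLA-DRA (0.13, adjusted p = 0.441) and HLA-DRB1 (0.17, adjusted p = 0.131) did not pass, but both did with replicate numbers 3 and 4 alone (adjusted p = 0.021 and 0.0386). In that fit 4 of the 6 genes were called, and 106 were called higher over all genes. Without replicate number 1 none of the 6 was called, and without control library 2 or replicate number 2 there were 3. The list median was 0.14, with -0.062 in pair 2 and 0.28 in pair 3. With sgRNA2 5 of the 6 were called higher, against 2.17% higher with that guide over all genes tested.

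The granule protein myeloperoxidase (MPO), a marker of myeloid progenitors, moved the other way. It was at 9.81, 9.87, 10.03 and 10.22 in control and 9.45, 9.25, 9.70 and 9.70 in sgRNA1 cells, without overlap (-0.46, SE 0.051, adjusted p = 8.11e-06). It was the 1 gene called lower of 13 tested granule genes, of which 3 were below 0, and the list median was 0.10. Over all genes tested 1.83% were lower and 1.37% higher. RNASE2 rose by 0.18 (adjusted p = 0.0329), while ELANE (0.04, adjusted p = 0.738) and PRTN3 (-0.01, adjusted p = 0.961) did not pass. Quantile scaling gave 3 higher granule genes. With libraries or numbers left out there were 0 to 4, none without control library 3, sgRNA1 library 2, 3 or 4, or replicate number 3 or 4, and 4 without sgRNA2 library 3. None of 18 myeloid transcription factor genes was called by limma (4 had an unadjusted p under 0.05), CEBPA (0.12, adjusted p = 0.192) and SPI1 (0.11, adjusted p = 0.214) included. Of the 10982 genes tested 1841 had an unadjusted p under 0.05. In the HOXA group HOXA5 rose by 0.20 (SE 0.046, adjusted p = 0.0218), 1 of 18, against 1.37% higher over all genes tested. Cytokine signalling showed 3 higher genes of 17, against the same 1.37%. They were the STAT5 target CISH (0.20, SE 0.046, adjusted p = 0.0173), the G-CSF receptor CSF3R (0.18, SE 0.043, adjusted p = 0.0218) and the kinase PIM1 (0.28, SE 0.068, adjusted p = 0.0245). FLT3 did not pass (0.05, adjusted p = 0.599). Without control library 3, sgRNA1 library 1 or 3, or replicate number 4, none of the 17 was called.

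In other pathways few members were called, and for most lists the share called was not far from the 1.37% higher and 1.83% lower over all genes, so that the values describe single genes and not the lists. The apoptosis genes BCL2 (-0.20, SE 0.050, adjusted p = 0.0333) and BCL2A1 (0.20, SE 0.053, adjusted p = 0.0415), both inhibitors of cell death, moved in opposite directions among 22 tested. Amino acid and stress genes showed 2 lower members of 29, the transporter SLC7A5 (-0.24, SE 0.046, adjusted p = 0.00462) and the serine synthesis enzyme PSAT1 (-0.17, SE 0.048, adjusted p = 0.0477), while ATF4, the regulator of that response, did not pass (-0.07, adjusted p = 0.475). Of the p53 targets 1 of 28 was lower, CCNG1 (-0.17, adjusted p = 0.0329), and CDKN1A (-0.01, adjusted p = 0.926) and MDM2 (-0.02, adjusted p = 0.927) did not pass. SCD, the desaturase of fatty acid synthesis, fell by 0.24 (SE 0.050, adjusted p = 0.00952), 1 of 23 in its list. ATP5F1A was lower (-0.20, adjusted p = 0.0103), 1 of 51 genes of oxidative phosphorylation, and MRPL45 (-0.20, adjusted p = 0.0235) and MRPS27 (-0.16, adjusted p = 0.027) were the lower genes among 75 mitochondrial ribosomal proteins. SQSTM1, an autophagy receptor, rose by 0.16 (adjusted p = 0.0414), 1 of 30 lysosome genes, and the chaperonin subunit CCT5 fell by 0.15 (adjusted p = 0.0329), 1 of 28 chaperones. The calls of BCL2, BCL2A1, PSAT1, CCNG1, SCD, MRPL45, MRPS27 and CCT5 were lost under quantile scaling (adjusted p of 0.0508 to 0.123). No call was made by limma among 34 proteasome, 20 interferon-stimulated, 17 MHC class I, 14 inflammatory or 12 histone genes, of which 7, 5, 2, 3 and 2 had an unadjusted p under 0.05. So did 1841 of the 10982 genes tested.

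To relate these values to the guide that left more YBX1 mRNA, sgRNA1 was set against sgRNA2 directly. The 2 comparisons with control share the 4 control libraries, so their values are given side by side. YBX1 differed from control by -1.67 with sgRNA1 and by -0.93 with sgRNA2, and the direct difference was -0.75. This difference is likewise a description. YBX1 was the 1 gene called between the guides (0.00911% of genes tested), with 750 genes at an unadjusted p under 0.05. EIF4B was at -0.91 with sgRNA1 and -0.62 with sgRNA2, and the difference of -0.29 did not pass (adjusted p = 0.0689). EIF3L was at -0.79 and -0.56 (difference -0.23, adjusted p = 0.122) and EEF1B2 at -0.39 and -0.20 (difference -0.20, adjusted p = 0.228). ITGAX was at 0.50 and 0.64 (difference -0.14, adjusted p = 0.717), and ADA2 at 0.49 with both guides (adjusted p = 0.997).

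Counts by list also stood side by side, although no list member other than YBX1 passed the direct test. Large-subunit ribosomal genes were called lower in 14 of 50 cases with sgRNA1 and 3 with sgRNA2, and small-subunit genes in 5 of 33 and 0. For G2 and mitosis genes the counts were 2 of 30 and 12, and for monocyte and macrophage genes called higher 4 of 22 and 9. Over all genes, sgRNA2 had 434 calls against control (3.95%), of which 238 were higher (2.17%) and 196 lower (1.78%), whereas sgRNA1 had 151 higher and 201 lower.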

How the data were processed

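Poly(A)-selected RNA of sorted MOLM13 cells was read as 37 bp paired ends. The authors deposited regularised log2 (rlog) values per library for protein-coding genes, made with DESeq2, which scales counts by size factors and shrinks weakly expressed genes. Per the submitters' processing notes, STAR 2.7.5a, HTSeq 0.6.1pl, Picard 2.9.4 and bcl2fastq 2.20.0.422 were among the tools and GRCh38 was the build, with no parameters, and the table's name says that duplicates were removed. Removing duplicates lowers abundant transcripts most. The sources do not say if the transformation used the groups. Read counts were not used here, so depth is unknown and precision rests on the spread between libraries. The authors also deposited their own fold changes and adjusted p-values and per-gene scaled scores, which were not used.

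Of 19755 genes, 3669 had 1 value in all libraries. Genes with a mean rlog of at least 4 over the 12 libraries (10982) were tested with limma 3.58.1 in R 4.3.3 (lmFit, eBayes with a trend, two-sided, Benjamini-Hochberg adjustment over all tested genes) on 3 groups with the replicate number as a block, which left 6 residual degrees of freedom. The highest level outside the filter was 3.999 and the lowest inside 4.000, and of the 60 genes within 0.1 above it 0 were called. The labels do not say what a replicate number stands for. Deviations of same-numbered libraries from their group means correlated at 0.577 to 0.74, against -0.641 to 0.319 for other numbers, and 8 of 8 libraries correlated best with their own number, so the numbers were taken to pair the libraries. The labels do not state separate cultures, so p-values may measure technical spread.

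On simulated data with 200 of 10982 genes changed, the sgRNA1 against control fit called 84.8% of changes of 0.25, 98.5% of 0.5 and 100% of 1 on the log2 scale, with 8 false calls. The simulation made replicate-number effects additive, as the fit assumes. The named genes were YBX1, the 15 largest increases and decreases among calls with the same sign in 4 of 4 pairs, and per list up to 4 called members by adjusted p and the first 2 others; EIF4EBP2, NOP53 and RACK1 were named after their values were seen. Some genes that the rule would name are not reported here. The 40 functional and 6 marker lists and all members were chosen with earlier results of these data known. Of 13 list symbols not found, 12 were replaced through RefSeq synonyms. Coordinates are GENCODE 29 (GRCh38), which held 99.9% of the identifiers without their version, and sequences are RefSeq (GRCh38.p14). Transcript starts from GENCODE and list counts under quantile scaling were added after the data were seen. Alternatives covered the block, libraries, filter, scaling, moderation, start window and replicate numbers. Python 3.11.15, pandas 2.3.3 and matplotlib 3.10.9 made the tables and figures.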

Additional observations from a re-analysis of the deposited data

Results flagged for a closer look

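Among 158 named genes, 316 groups of 4 libraries were searched for a library whose gap to the nearest other exceeded Dixon's critical share of the group's range for 4 samples, and 7 were found, where chance flags about 1 in 20 groups. ADA2 in control library 2 was at 8.67, while the other controls lay between 8.16 and 8.22, and pair 2 gave its smallest step. TBC1D8 in sgRNA1 library 3 was at 9.892, above the others at 9.65 to 9.67. AARS was at 12.24 in control library 1 against 11.80 to 11.82 in the others. FBL was at 12.7 in control library 4 against 12.51 to 12.53. IMPDH2 and HNRNPA1 were low in sgRNA1 library 1, at 12.09 (others 12.24 to 12.27) and 13.86 (others 13.97 to 13.98). FCGR2A was low in sgRNA1 library 2, at 7.673 against 8.03 to 8.04.

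The effect of the guides differed by the direct test for YBX1, by -0.75 on the log2 scale. sgRNA1 had been taken as the guide with less YBX1 mRNA left, so this is a description.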

How the results depend on the processing

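The difference of YBX1 lay between -1.71 and -1.64 on the log2 scale in every setting tried, and between -1.71 and -1.66 over the fits leaving out libraries or numbers. Of the 76 named calls, 75 kept their direction in all settings; EEF2 came to 0 under quantile scaling. The number of called genes depended on the block. With no replicate block 5 genes were called, 0 higher and 5 lower, and with the 8 libraries alone 4, 0 higher and 4 lower, against 515 (259 higher) for those 8 with the block, which included all 352. Without the filter on the mean level 107 were called (32 higher, 75 lower). Quantile scaling left 125 lower genes and gave 2 genes between the guides. Replicate numbers 1 and 2 alone gave 760 calls (379 higher, 381 lower) and 10 between the guides. Numbers 3 and 4 alone gave 181 (75 lower), 7 past 1.5-fold and 75 between the guides. The cause of these shifts was not tested. Leaving out libraries or numbers gave 75 to 706 calls, 25 to 318 higher and 50 to 388 lower, 3 to 7 past 1.5-fold, and 1 to 4 between the guides. A start window of 10 bases in place of 5 raised the share of lower genes with a pyrimidine run from 13.4% to 22.4%, and that of all genes tested from 10.8% to 17.3%. Depth is unknown, and shrinkage of the rlog values limits what can be seen in weakly expressed genes.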
